A study of Mus musculus with 6 samples.

Results

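The 7 genes described here are rows for components and responses of WNT signalling, chosen by name from 1653 genes listed in every library: the ligands Wnt8a and Wnt3, the nuclear effector Lef1, the feedback inhibitors Axin2 and Notum, and Sp5 and T, which are switched on in the primitive streak. They were counted by RNA-seq in 6 libraries of embryonic stem cells of the mouse strain C57BL/6. There were 3 wild-type libraries and 3 of Yaf2KO cells, in which Yaf2 was knocked out with Cas9. Both genotypes were grown with leukemia inhibitory factor and serum on mitomycin-inactivated mouse embryonic fibroblasts, so fibroblast RNA can be present in every library. The labels name no clone and do not say whether the 3 Yaf2KO libraries come from separate lines, so p-values measure the spread between these libraries, which may be technical.

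WNT proteins are secreted lipid-modified ligands that bind Frizzled and LRP receptors and stabilise beta-catenin. Beta-catenin then enters the nucleus and binds TCF and LEF proteins, which recognise short CTTTG-containing DNA words and switch on target genes, among them inhibitors that damp the pathway. In the mouse epiblast, WNT signalling is needed to form the primitive streak, the site where mesoderm and endoderm arise, and in cultured stem cells it affects the balance between self-renewal and differentiation. The Yaf2 protein belongs to variant forms of Polycomb complex 1, a family of chromatin regulators known for keeping developmental genes silent. The row of Yaf2 itself was not analysed here, so the genotype labels could not be checked on the target transcript.

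The start-site sequences of Wnt3, Sp5 and T are shown because their levels moved together between the Yaf2KO libraries, as given below. Their windows also hold words of the kind that TCF and LEF proteins bind. These genes were picked with both known, and a link between the words and the levels was not tested. RefSeq windows (GRCm38.p6, 250 bases before to 50 after a transcription start) were matched for 5 of the 7 genes, Lef1, Wnt3, Axin2, Sp5 and T, and those of Wnt8a and Notum were not used here. The word CTTTGAA was searched on both strands, as were its variants, the word CTTTGAT, the word CTTTGTA and also the word CTTTGTT. No pair of them can overlap on 1 strand. The windows below run 5' to 3' along the gene from 250 bases before the start to 30 from the start on, with matching words in capitals, and the first of 4 windows of Lef1, which holds no match, is printed beside them.
Sp5 (chr2:70474673-70474952, + strand): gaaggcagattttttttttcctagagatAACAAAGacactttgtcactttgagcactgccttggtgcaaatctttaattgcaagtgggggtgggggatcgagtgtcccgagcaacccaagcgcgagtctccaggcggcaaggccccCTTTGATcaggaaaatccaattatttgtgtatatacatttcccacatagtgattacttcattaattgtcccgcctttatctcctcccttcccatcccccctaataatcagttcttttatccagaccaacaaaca
T (chr17:8434173-8434452, + strand): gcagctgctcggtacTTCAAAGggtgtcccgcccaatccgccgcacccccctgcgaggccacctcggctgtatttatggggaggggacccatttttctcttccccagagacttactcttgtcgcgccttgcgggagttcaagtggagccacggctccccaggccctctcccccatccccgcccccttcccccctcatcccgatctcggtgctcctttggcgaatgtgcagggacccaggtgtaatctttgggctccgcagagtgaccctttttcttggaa
Wnt3 (chr11:103773925-103774204, + strand): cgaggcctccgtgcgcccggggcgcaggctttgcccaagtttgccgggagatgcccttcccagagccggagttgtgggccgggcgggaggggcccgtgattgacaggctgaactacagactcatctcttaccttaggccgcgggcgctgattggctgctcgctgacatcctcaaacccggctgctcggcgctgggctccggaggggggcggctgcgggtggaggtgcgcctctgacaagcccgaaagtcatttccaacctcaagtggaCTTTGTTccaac
Lef1 (chr3:131110047-131110326, + strand): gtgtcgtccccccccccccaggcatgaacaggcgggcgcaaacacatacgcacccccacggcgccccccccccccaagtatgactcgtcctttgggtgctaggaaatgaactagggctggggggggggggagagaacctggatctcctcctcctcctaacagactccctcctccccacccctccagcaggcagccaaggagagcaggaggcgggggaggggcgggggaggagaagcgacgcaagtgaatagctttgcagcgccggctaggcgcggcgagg
Counted with the start site as base 0, Sp5 held CTTTGAT at bases -104 to -98 and the reverse complement of CTTTGTT at -222 to -216. T held the reverse complement of CTTTGAA at -235 to -229, and Wnt3 held CTTTGTT downstream of its start, at 18 to 24. Axin2 and the first 3 windows of Lef1 held none of these words, and the window at the most downstream start of Lef1 held the reverse complement of CTTTGTA at -147 to -141. At least 1 match was held by 16.9% of the first windows of 27025 RefSeq genes and by 19.3% of those of 716 listed genes. The windows differed in base composition: the GC content was 45% for Sp5, 61.7% for T, 65.7% for Wnt3, 67.3% for Lef1 and 70% for Axin2, against a median of 52.7% over all genes.

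Each value below is a raw read count summed over a whole gene, or that count scaled on the listed genes. The listed genes summed to 56367 to 72975 reads in wild type and to 143682 to 451075 in Yaf2KO, and these sums are not the depth of the libraries, which was not used here. CPM here means reads per 1000000 of the TMM-scaled sum of the listed counts, so a log2 fold change of 0 is that of a typical gene on the list. Yaf2KO 1 stood apart with the largest sum, and results that turn on it are given with and without it. Of 24 stem cell markers 7 were listed, among them Nanog with 1750 to 2756 reads in wild type and 2816 to 20052 in Yaf2KO. Of 28 fibroblast markers 6 were listed, with 17075 to 25892 CPM summed in wild type and 7455 to 45798 in Yaf2KO. Postn and Prrx1 among them were at 0 in Yaf2KO 1, but had at most 3 reads in any wild-type library.

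In raw counts 6 of the 7 genes had more reads in every Yaf2KO library than in every wild-type library, Notum being the exception. Such separation was found for 59.6% of the 483 listed genes averaging 10 reads or more, and for 27.4% of all 1653, so raw counts mostly repeat what the whole list does. After scaling, 3 of the 7 remained fully separated (Lef1, Wnt8a and Axin2), where 7.04% of the 483 genes were separated upward. Without Yaf2KO 1 the number was 6 (Lef1, Wnt8a, Wnt3, Axin2, Sp5 and T), where 15.5% of the 483 genes were; these counts were added after the data were seen. All 7 genes passed the low-count filter, which asks for 92.3 CPM in 3 libraries. Of the wild-type libraries 2 reached it for Lef1, 1 for Wnt8a and 2 for T, so these genes passed only with the help of Yaf2KO libraries.

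**Figure D1:**
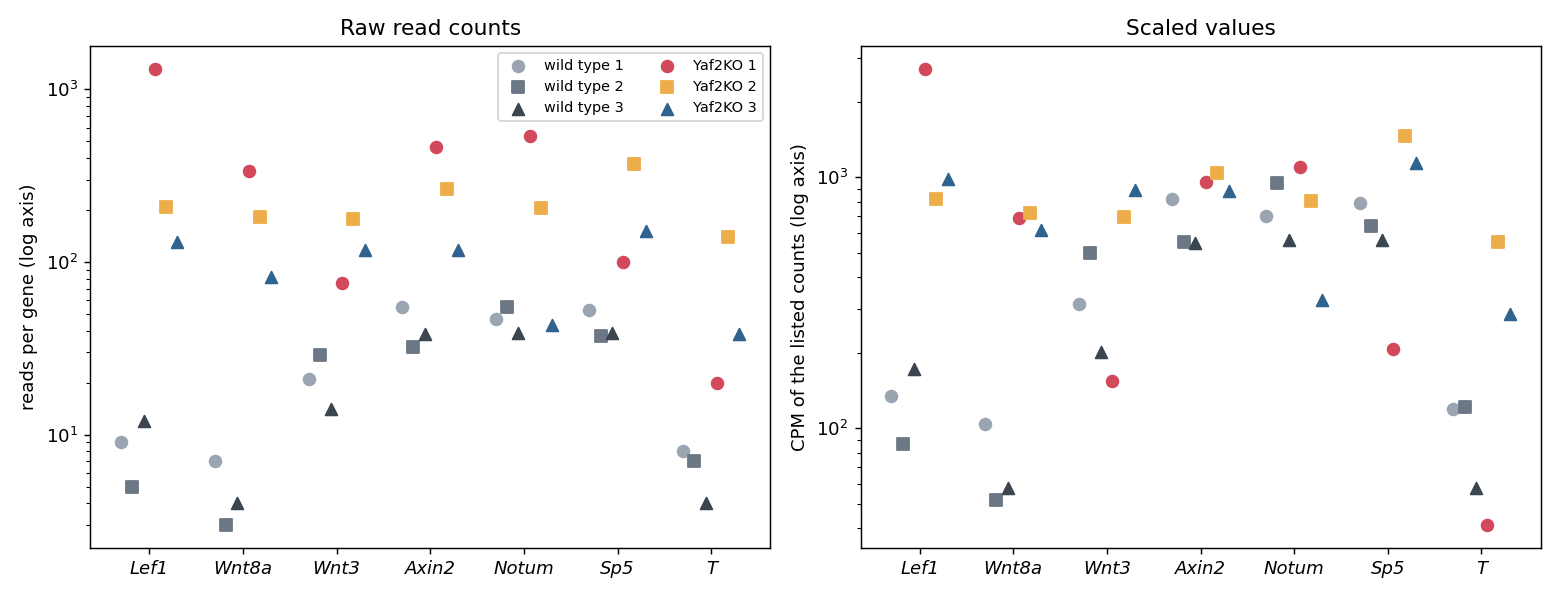
Reads per gene (left) and CPM of the listed counts (right), both on log axes, for the 7 genes; each point is 1 library, grey for wild type and coloured for Yaf2KO. In scaled values Lef1 and Wnt8a lie above all wild-type libraries in each Yaf2KO library, whereas Wnt3, Sp5 and T lie below them in Yaf2KO 1.

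Of the ligands, Wnt8a rose in Yaf2KO and Wnt3 did not pass the test. Wnt8a (ENSMUSG00000012282, chromosome 18, 34542313 to 34548273, plus strand, mm10), a ligand made in the epiblast and streak of the gastrulating embryo, had 7, 3 and 4 reads in the wild-type libraries, against 335, 183 and 82 in Yaf2KO. The wild-type counts were low, and the 3 reads of wild type 2 have an exact Poisson 95% interval of 0.619 to 8.77, which covers counting error only. Scaled, this made 104, 51.8 and 57.7 CPM against 690, 722 and 618 CPM. The Yaf2KO libraries lay close together and far from wild type, with a coefficient of variation of 7.85% among them. Among the wild-type libraries it was 40.5%, where counts of 3 to 7 reads carry large counting error, so the 2 spreads are not comparable. The log2 fold change of Wnt8a was 3.23, with an SE of 0.55 (adjusted p = 0.0434 by edgeR's quasi-likelihood test with Benjamini-Hochberg adjustment, higher in 3 of 3 Yaf2KO libraries), where 0.798% of the 376 tested genes were called. Without Yaf2KO 1 it was 3.20 (adjusted p = 0.00161 by edgeR).

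Wnt3 (ENSMUSG00000000125, chromosome 11, 103774150 to 103817957, plus strand), the ligand required for streak formation, had 21, 29 and 14 wild-type reads and 75, 177 and 118 reads in the Yaf2KO libraries. In scaled values it had 313, 500 and 202 CPM against 154, 698 and 890 CPM. Yaf2KO 1 was thus the lowest of all 6 libraries and Yaf2KO 2 and 3 the highest. The log2 fold change of 0.77 (95% interval -0.72 to 2.27, adjusted p = 0.95 by edgeR) did not pass the test and does not exclude a change of more than 4-fold upward. Without Yaf2KO 1 it was 1.22 (SE 0.52, adjusted p = 0.328 by edgeR).

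The 2 ligands therefore differed in their scaled pattern, and this could be read without any scaling from their ratio within each library. Wild-type libraries held 0.333, 0.103 and 0.286 Wnt8a reads per Wnt3 read, and Yaf2KO libraries 4.47, 1.03 and 0.695. The groups did not overlap, where 10.5% of all pairs of the 483 genes averaging 10 reads or more did not. This follows from the rise of Wnt8a given above, and the wild-type ratios rest on 7, 3 and 4 Wnt8a reads. The other listed ligands were Wnt4, Wnt5b and Wnt8b of 19 fixed symbols. Wnt4, a ligand of kidney and gonad development, had 16, 26 and 4 wild-type reads against 57, 241 and 89 (log2 fold change 1.23, SE 0.84, not called). Its scaled level was 0.473-fold the wild-type mean in Yaf2KO 1 and 3.83-fold in Yaf2KO 2, on the same sides of the mean as Wnt3. Unlike Wnt3, in Yaf2KO 1 it was above 1 wild-type library (117 CPM, against 57.7 in wild type 3). Wnt5b (log2 fold change -0.21, SE 0.50) was not called, and Wnt8b had 0 or 1 reads in each wild-type library and 6, 0 and 0 in Yaf2KO.

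Lef1 (ENSMUSG00000027985, chromosome 3, 131110471 to 131224356, plus strand), the DNA-binding partner of beta-catenin, rose in Yaf2KO. It had 9, 5 and 12 wild-type reads and 1315, 208 and 131 reads in the Yaf2KO libraries, or 134, 86.3 and 173 CPM against 2709, 820 and 988 CPM. Yaf2KO 1 stood above the other two, at 20.6-fold the wild-type mean, with Yaf2KO 2 at 6.25-fold and Yaf2KO 3 at 7.52-fold. The log2 fold change of Lef1 was 3.51, with an SE of 0.64 (adjusted p = 0.0434 by edgeR), and was 2.75 without Yaf2KO 1 (adjusted p = 0.00466 by edgeR), below the 3.20 of Wnt8a in that fit. Lef1 was the 1 listed gene of the 24 symbols of the beta-catenin core and nuclear effectors. The other TCF factors, beta-catenin and the destruction complex apart from Axin2, given below, were therefore not analysed here.

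The calls of Lef1 and Wnt8a were lost when any 1 wild-type library was left out. In those fits the filter was rerun and left 470 or 480 genes, against 376 in the fit reported. Leaving out wild type 1, 2 or 3 gave adjusted p-values by edgeR of 0.257, 0.327 and 0.183 for Lef1 and of 0.243, 0.327 and 0.183 for Wnt8a, with log2 fold changes of 3.36 to 3.73 and 3.09 to 3.70, and without Yaf2KO 2 Wnt8a was at 0.0642. By limma-voom both missed the threshold as well, at adjusted p = 0.311 and 0.163. Both were called when the libraries were taken as equally deep, where 75.7% of tested genes were, by the DESeq2 Wald test (2.66%), without a low-count filter (0.916%), with a filter on the mean CPM alone (0.923%), without Yaf2KO 1 (3.17%) and without Yaf2KO 3 (0.58%). Without Yaf2KO 2, Lef1 was the 1 gene called (0.287%).

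**Figure D2:**
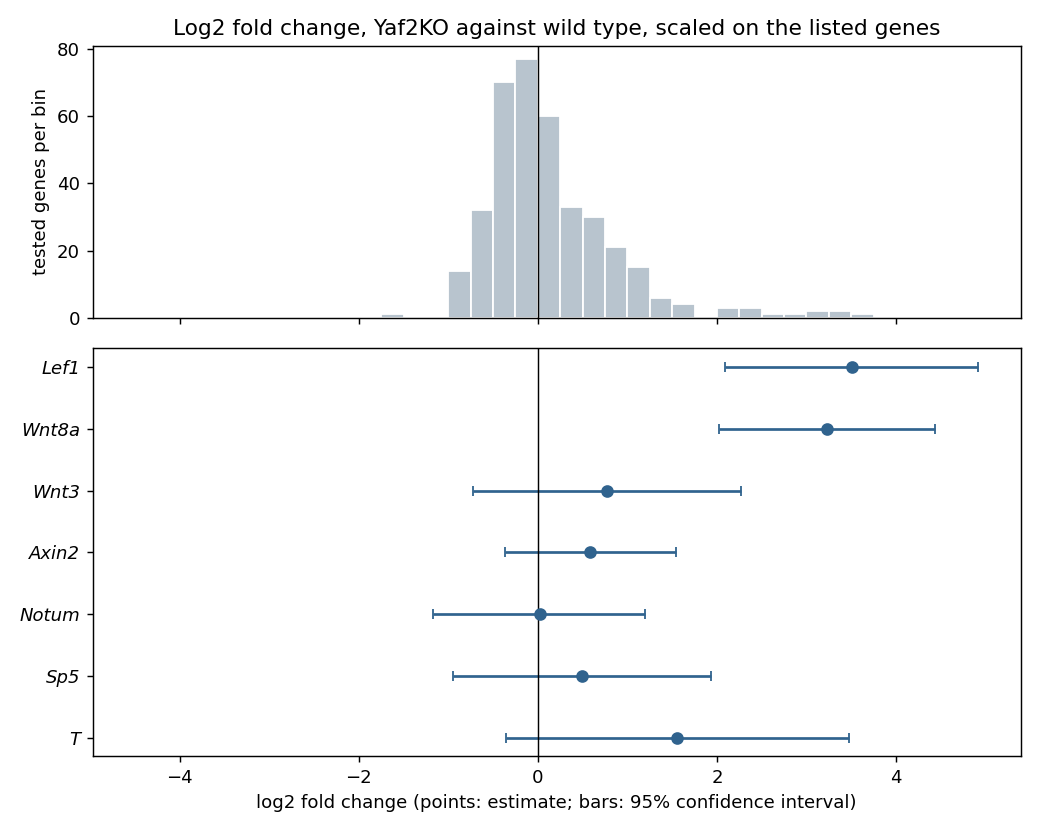
Top, log2 fold changes of all 376 tested genes as counts per bin of equal width; bottom, the 7 genes with edgeR estimates (points) and 95% confidence intervals (bars) on the same log2 axis. Lef1 (3.51) and Wnt8a (3.23) lie in the far right tail with intervals above 0, and the intervals of the other 5 genes include 0.

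The feedback inhibitors, which are the usual readout of beta-catenin activity, did not pass the test. Axin2 (ENSMUSG00000000142, chromosome 11, 108920349 to 108950783, plus strand), a scaffold of the beta-catenin destruction complex, had 55, 32 and 38 wild-type reads, against 465, 263 and 117. In scaled values it had 821, 552 and 548 CPM against 958, 1037 and 882 CPM. All Yaf2KO libraries lay above all wild-type libraries, but Yaf2KO 3 only just, and with scaling to the plain sum of the listed genes that separation was lost (814 CPM in Yaf2KO 3, 838 in wild type 1). The log2 fold change was 0.58 (95% interval -0.37 to 1.54, adjusted p = 0.95 by edgeR). Like Wnt8a, Axin2 was even across the Yaf2KO libraries, with a coefficient of variation of 8.11%, and the ratio of Wnt8a to Axin2 reads was 0.72, 0.696 and 0.701 there, against 0.127, 0.0938 and 0.105 in wild type.

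Notum (ENSMUSG00000042988, chromosome 11, 120653788 to 120661175, minus strand), a secreted enzyme that inactivates WNT ligands by removing their lipid, had 47, 55 and 39 wild-type reads, against 534, 204 and 43. In scaled values it had 701, 949 and 563 CPM against 1100, 805 and 324 CPM. Yaf2KO 1 was the highest and Yaf2KO 3 the lowest of the 6 libraries, with wild type in between. The fitted log2 fold change of 0.02 (95% interval -1.17 to 1.20, adjusted p = 0.997 by edgeR) is therefore an average over libraries that lay on both sides of wild type, and it was -0.37 without Yaf2KO 1 and 0.37 without Yaf2KO 3. Notum is overlapped on the opposite strand by the listed antisense RNA Notumos, with 4, 5 and 2 wild-type reads against 93, 37 and 6, and since no strand setting is given in the sources used here, reads of the pair cannot be told apart. Lef1 and Axin2 also have antisense genes across them in the annotation, which were not analysed here. Of 24 symbols for secreted inhibitors and feedback 5 were listed; besides Axin2 and Notum these were Dkk1, Dkk2 and Frzb, each with at most 3 reads in any wild-type library and at most 10 in any Yaf2KO library.

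Sp5 and T, the streak targets, did not pass the test over all libraries either. Sp5 (ENSMUSG00000075304, chromosome 2, 70474923 to 70477729, plus strand), a zinc-finger factor and direct WNT target whose window above holds 2 TCF or LEF words, had 53, 37 and 39 wild-type reads, against 100, 371 and 151. In scaled values it had 791, 639 and 563 CPM against 206, 1463 and 1138 CPM. Yaf2KO 1 lay below every wild-type library and Yaf2KO 2 and 3 above every one. The log2 fold change of Sp5 came to 0.49 (95% interval -0.95 to 1.93, adjusted p = 0.95 by edgeR), 0.96 without Yaf2KO 1 (SE 0.44, adjusted p = 0.336 by edgeR) and -0.02 without Yaf2KO 2.

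T (ENSMUSG00000062327, chromosome 17, 8434423 to 8442496, plus strand), which encodes the mesoderm factor Brachyury, had 8, 7 and 4 wild-type reads, against 20, 140 and 38. In scaled values it had 119, 121 and 57.7 CPM against 41.2, 552 and 286 CPM. As with Sp5, Yaf2KO 1 was below all wild-type libraries and the other two above them, and the level in Yaf2KO 2 was 13.4-fold that in Yaf2KO 1. The log2 fold change was 1.55 (95% interval -0.36 to 3.47, adjusted p = 0.95 by edgeR). Without Yaf2KO 1 it was 2.08 (SE 0.58, adjusted p = 0.0621 by edgeR), the closest any of the 5 uncalled genes came to the threshold in a fit that scaled the libraries.

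**Figure D3:**
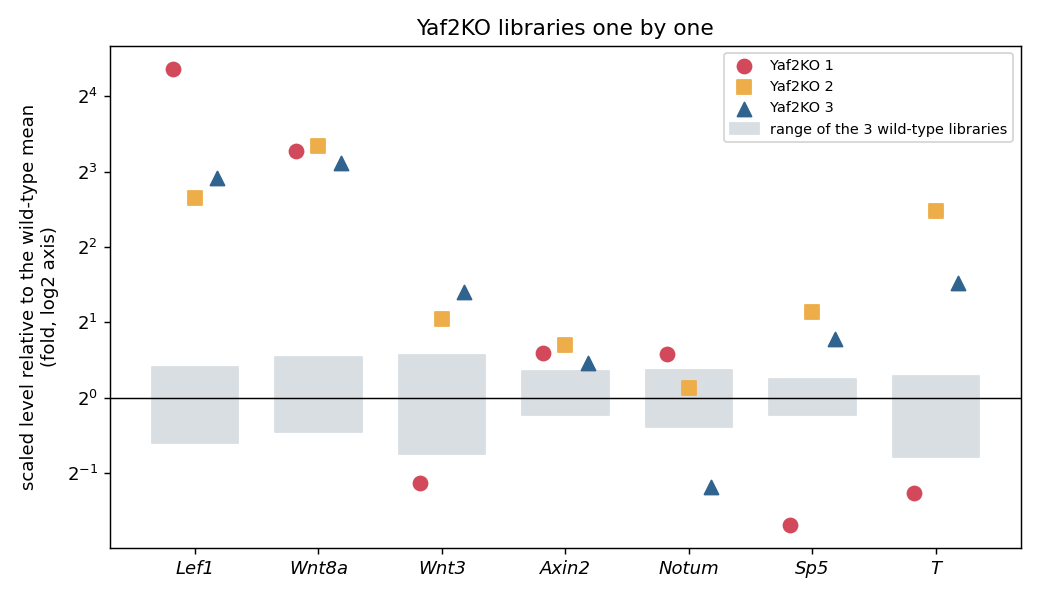
Scaled level of each gene in each Yaf2KO library as a fold of the wild-type mean, on a log2 axis; grey boxes span the 3 wild-type libraries. Lef1 (6.25 to 20.6) and Wnt8a (8.67 to 10.1) are high in every Yaf2KO library, and Wnt3, Sp5 and T are below the grey boxes in Yaf2KO 1 and above them in Yaf2KO 2 and 3.

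Across the Yaf2KO libraries the 7 genes thus showed 4 patterns. Wnt8a and Axin2 were even, Lef1 was high throughout with its peak in Yaf2KO 1, Notum was highest in Yaf2KO 1 and lowest in Yaf2KO 3, and Wnt3, Sp5 and T were lowest in Yaf2KO 1. In Yaf2KO 1 the scaled levels of Wnt3, Sp5 and T were 0.456-, 0.31- and 0.415-fold the wild-type mean, placing them above only 6.83%, 2.9% and 5.38% of the 483 genes in that library. In the same library Lef1 had rank 3 and Wnt8a rank 13 from the top. Summed, the 7 genes were nearly level between these libraries, at 5858, 6098 and 5126 CPM in Yaf2KO 1 to 3.

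Several marker sums lay on the same sides of the wild-type mean as these genes. Fibroblast markers, as a sum of 6 listed genes, were 0.328-, 2.01- and 1.23-fold the wild-type mean in Yaf2KO 1, 2 and 3, the sides of Wnt3, Sp5 and T. Most of that sum was Tagln, a smooth muscle and fibroblast gene, with 17908 of 25892 CPM in wild type 1. All 6 markers were below the wild-type mean in Yaf2KO 1 and all 6 above it in Yaf2KO 2, but in Yaf2KO 3 they were split, with Acta2 (0.68-fold), Postn (0.234-fold) and Prrx1 (0.97-fold) below it. Postn had only 3, 3 and 0 wild-type reads against 0, 12 and 1, and Prrx1 had 1, 1 and 1 against 0, 6 and 2. Both were too low to test, and their sides can be counting error. Neuroectoderm markers, as a sum of 4 that was mostly Nes, were 0.473-, 1.35- and 1.15-fold. These were also the sides of the mean on which Wnt3, Sp5 and T lay. In Yaf2KO 3, however, the sum (12190 CPM) was below wild type 2 (12512 CPM). Nefm in that list was 5.82-fold in Yaf2KO 1 and 0.382-fold in Yaf2KO 3. Stem cell markers, as a sum of 7, were 1.40-, 0.974- and 0.654-fold, the order of Notum, with all 7 above the wild-type mean in Yaf2KO 1 and 6 below it in Yaf2KO 3, where Klf4 was 1.87-fold. In bulk RNA, fewer cells of a type and less RNA per cell cannot be told apart, and the part of these marker lists in the results was not tested. Set against Nanog, a gene of the stem cells and not of the fibroblasts, Lef1 had 4.02, 2.86 and 4.35 reads per 1000 Nanog reads in the wild-type libraries, against 65.6, 23.9 and 46.5 in Yaf2KO, and Wnt8a had 3.13, 1.71 and 1.45 against 16.7, 21 and 29.1. On that scale the groups of Lef1 and Wnt8a did not overlap, and those of the other genes described here did. Nanog itself was 1.2-, 0.997- and 0.616-fold the wild-type mean in Yaf2KO 1, 2 and 3, which raises ratios to it in Yaf2KO 3. How many of all listed genes separate on that scale was not computed, so these ratios are descriptions only. T had 3.57, 4 and 1.45 against 0.997, 16.1 and 13.5.

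**Figure D4:**
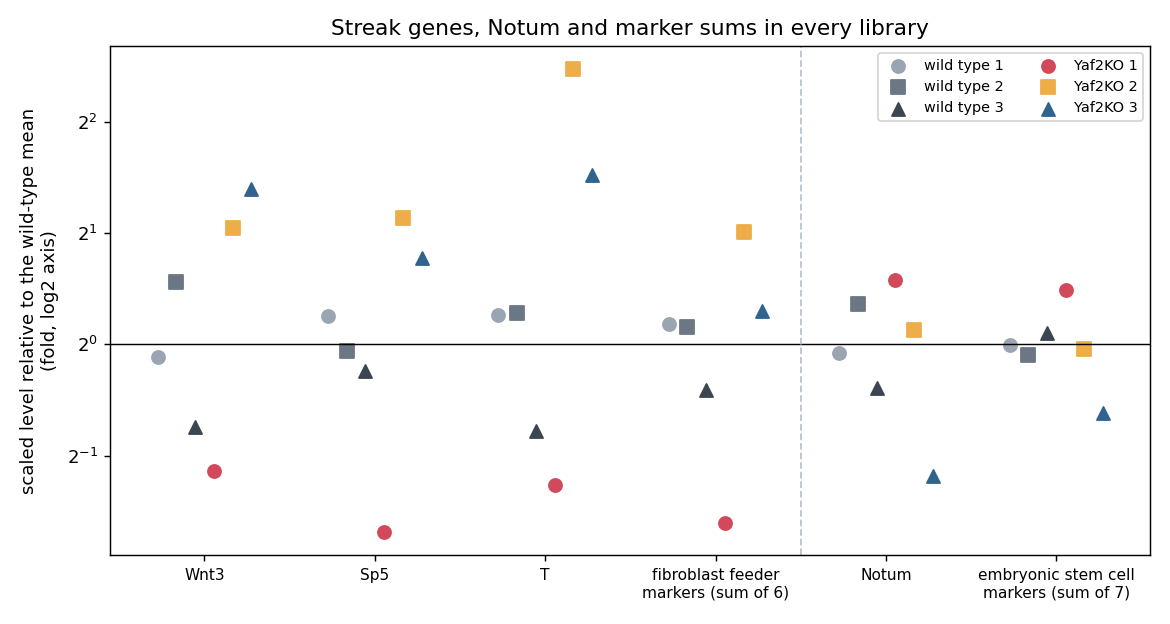
Scaled level of Wnt3, Sp5, T and Notum and of the summed fibroblast and stem cell markers, as a fold of the wild-type mean on a log2 axis; each point is 1 library. Left of the dashed line Yaf2KO 1 is the lowest library (0.31 to 0.456 for the genes, 0.328 for the fibroblast sum); right of it Yaf2KO 3 is the lowest (0.439 for Notum, 0.654 for the stem cell sum).

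Ratios between the 7 genes, which need no scaling, mostly set Lef1 and Wnt8a apart from the others. They come from the same counts as the patterns above and show them again. Per read of Wnt3, Sp5 and T, Yaf2KO 1 held 17.5, 13.2 and 65.8 Lef1 reads. Yaf2KO 2 held 1.18, 0.561 and 1.49, and Yaf2KO 3 held 1.11, 0.868 and 3.45. Of the 21 pairs, 10 had ratios that did not overlap between the genotypes, where 10.5% of all pairs of the 483 genes did. Of the 10, 9 involved Lef1 or Wnt8a. Pairs share genes, and the 7 genes were chosen with earlier results of these data known. The number of pairs therefore cannot be read against that share as a test. The ratio of Lef1 to Wnt8a itself overlapped, at 1.29, 1.67 and 3 in wild type against 3.93, 1.14 and 1.60. That of Lef1 to T overlapped too. The tenth pair was Sp5 and T, with 6.62, 5.29 and 9.75 Sp5 reads per T read in wild type and 5, 2.65 and 3.97 in Yaf2KO. With 3 libraries against 3, an exact two-sided permutation test of a single ratio cannot give a p below 0.1, so the ratios are given as descriptions.

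Levels were compared between genes as CPM per kilobase of merged exons (1746 bases for Wnt8a to 8788 for Lef1). In wild type, Sp5 (316 ± 55.3, SD, n = 3) and Notum (306 ± 81.3) were the highest and did not differ beyond their spread. Axin2 (116 ± 28.4) and Wnt3 (110 ± 49.0) formed the next step, T (42.9 ± 15.6) and Wnt8a (40.8 ± 16.5) the next, and Lef1 (14.9 ± 4.95) was the lowest, with no overlap of libraries between steps. In Yaf2KO the order was Sp5 (446 ± 311), Wnt8a (388 ± 30.4), Notum (309 ± 163), Wnt3 (189 ± 124), Axin2 (174 ± 14.1), Lef1 (171 ± 119) and T (127 ± 110), and every neighbouring pair overlapped. Wnt8a thus went from the sixth place to the second. Merged exons include rare isoforms, which can lower the values of genes with many transcripts such as Lef1.

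The pathway, in 5 fixed lists of 109 symbols that include the 7 genes, had 23 genes listed. Of these 16 could be tested and 2 were called higher, Lef1 and Wnt8a, and 0 lower. Over all 376 tested genes 0.798% were called. Leaving out the 7 genes described here, 9 were tested, 0 were called by edgeR and 0 had an unadjusted p under 0.05, with a median log2 fold change of -0.16, against -0.03 over all 376 tested genes. Porcn, which attaches the lipid to WNT proteins, had a log2 fold change of 0.59 (SE 0.37), the receptor Ror1 -0.29 (SE 0.45), and Rspo3, a ligand that potentiates WNT, was too low to test. Among the WNT targets, Id3, an inhibitor of helix-loop-helix factors, had the most reads (366, 360 and 217 against 1159, 1748 and 530) and a log2 fold change of -0.16 (SE 0.45). Of 33 streak and mesendoderm symbols 8 were listed, 6 tested and 1 called (Wnt8a), with a median of 0.82, but 4 of the 8 are Wnt8a, Wnt3, Sp5 and T themselves. Of the other 4, 2 were tested (Fgf8 and Cdx1) and 0 were called by edgeR, also 0 at an unadjusted p under 0.05, with a median of 0.30. Fgf8, a growth factor of the streak, had 7, 15 and 9 reads against 49, 108 and 49 (log2 fold change 0.86, SE 0.67), and like T it was lower than the wild-type mean in Yaf2KO 1 (0.614-fold) and higher in Yaf2KO 2 (2.59-fold). Cdx1, a homeobox gene of the posterior embryo, was 0.56-, 1.32- and 0.606-fold the wild-type mean in Yaf2KO 1, 2 and 3, so it did not share the level of T in Yaf2KO 3.

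Genes with the most similar pattern over the 6 libraries were sought among 482 others. The measure was the root-mean-square distance between log2 profiles, each centred on its own mean. Only genes with a regular symbol, not Gm, Rik or clone names, are named as nearest. An unnamed gene can therefore lie nearer than some of them, whereas ranks count all 482 genes. For Lef1 the nearest was Wnt8a, at 0.63 log2 units (median of all genes 1.88), then Otx2, a factor of the epiblast, at 0.72. For Wnt8a the nearest were Halr1, a long non-coding RNA, at 0.46 and Lef1 at 0.63. Around Wnt3 lay Itgb8, an integrin subunit gene (0.28), and Hmga2, a chromatin protein gene (0.33), and around Sp5 lay Tagln, a smooth muscle gene and one of the fibroblast markers (0.21), and Hmga2 (0.35). T was nearest to Ankrd1 (0.46), a cardiac and mesenchymal stress gene, and Cav1, which encodes the caveolar protein caveolin (0.53), with Wnt3 at rank 3 (0.54). Notum was nearest to Atp2b4 (0.20) and Cpsf4l (0.22), and Axin2 to Cnpy1 (0.20) and Rab25 (0.23). These are descriptions over 6 libraries, and the distances of flat genes such as Axin2 are small for many genes (median 0.76).

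Within 500 kb of the 7 genes few others were listed. Lef1 had 0 listed neighbours of 27 annotated, and Wnt8a had 1 of 33, 4933408B17Rik, 31.6 kb away, with 2, 3 and 5 reads against 18, 10 and 4. Notum had the most, 4 of 73, of which Notumos, described above, had the most reads in Yaf2KO 1.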

How the data were processed

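RNA was sequenced from 6 libraries, 3 wild type and 3 Yaf2KO, made from poly-T selected mRNA, per the labels' protocols. The authors deposited raw read counts per gene for 1 library in each file, per the file headers, next to gene annotation. Tools listed in the submitters' processing notes, without their roles, are HTSeq 0.6.0, TopHat2 2.0.12 and Cufflinks 2.2.1, and the build is mm10. Strand setting and choice of the 1653 listed genes are not given in the sources used here. Groups come from the titles. All 7 genes have the same coordinates in GENCODE M21, which also gave exon lengths.

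All listed genes entered 1 fit: edgeR 4.0.16 (R 4.3.3), filterByExpr by genotype (376 genes left), TMM factors (0.923 to 1.08), robust quasi-likelihood test, Benjamini-Hochberg adjustment over all tested genes, threshold 0.05; standard errors and 95% intervals come from that fit. The code was tested on simulated data. Chi-square tests per pair of libraries (genes with at least 20 reads) found none that agreed within sampling noise (at least 5.01 per degree of freedom). Profiles used log2 of scaled counts plus 1 and genes averaging 10 reads or more. Alternatives were DESeq2 1.42.0 (size factors, Wald test), limma 3.58.1 (voom), other scalings and filters, the replicate number as a block, and each library left out. Named genes are the 7 and up to 3 listed genes of highest mean count per fixed list (some further list members are named after their values were seen). Also named are the 2 nearest profiles of each of the 7 among genes with a regular symbol. The genes and lists were chosen with earlier results of these data known. Python 3.11.15 with pandas 2.3.3 and matplotlib 3.10.9 did the rest.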

Additional observations from a re-analysis of the deposited data

How the results depend on the processing

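The log2 fold changes of Lef1 and Wnt8a stayed above 0 in all 15 alternatives run, from 2.75 to 5.97 and from 3.09 to 5.38. They missed the threshold by limma-voom (3.33 and 3.16, with 0 genes called and 14 at an unadjusted p under 0.05) and without single wild-type libraries, and Wnt8a also without Yaf2KO 2; the cause was not tested. With single libraries left out the values ran from 2.75 to 3.79 for Lef1, 3.09 to 3.70 for Wnt8a, 0.37 to 1.28 for Wnt3, 0.48 to 0.88 for Axin2, -0.37 to 0.37 for Notum, -0.02 to 0.96 for Sp5 and 1.29 to 2.08 for T, which was not tested without Yaf2KO 2 or 3. In these fits with 1 library left out, the number of called genes ran from 0 (without any 1 wild-type library) to 11 (without Yaf2KO 1, 9 higher and 2 lower). The number was 3 in the fit reported, 10 by the DESeq2 Wald test and 15 under each of the looser filters (none, or a mean CPM from 1 up), where more genes are tested. Of the 7 genes, 6 instead of 3 had separate scaled groups without Yaf2KO 1.

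Taking the libraries as equally deep leaves the shift common to the list in place (median log2 fold change 2.12) and called 314 genes, 75.7% of those tested, among them Wnt3 (2.52), Axin2 (2.75), Notum (2.47), Sp5 (2.27) and T (3.36). Notum turned to -0.11 with upper-quartile factors and -0.03 by limma-voom, to -0.17 without wild type 3, -0.37 without Yaf2KO 1 and -0.05 without Yaf2KO 2. Sp5 turned to -0.09 by limma-voom and -0.02 without Yaf2KO 2. None of these turned values passed the threshold.

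With replicate number added to the model as a block, as for paired samples, 0 genes were called by edgeR (18 at an unadjusted p under 0.05), with Lef1 at 3.36 and Wnt8a at 3.26 (adjusted p = 0.0731 each) and Notum at -0.12. No label says that the numbers pair libraries, and the correlations over genes between deviations of libraries sharing a number were 0.03, 0.17 and 0.16. Wild-type counts of Lef1, Wnt8a and T, at 3 to 12 reads, limit the precision of their fold changes.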
